A study of Mus musculus with 20 samples.

Results

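The chromatin of wild-type C2C12 cells was compared between day 5 (D5) and day 1 (D1), both under methionine restriction (MR). C2C12 is a mouse myoblast line that exits the cell cycle and fuses into contractile myotubes when it is made to differentiate. The comparison used 4 of the 20 libraries of the series, chosen by their titles: replicates 1 and 2 of WT D1 MR and replicates 1 and 2 of WT D5 MR. All 4 carried wild-type Setd2, and both groups received the restricted medium, so by their titles the groups differed in day only. Any difference in time spent in the restricted medium goes with day and cannot be told apart from it. The other libraries were WT at D0, WT grown in control medium (CTL) on the same days, and Setd2 knockout (KO) cells from 2 lines in all of these conditions, with 2 libraries in each of 10 groups. The labels give neither the methionine level of the medium nor how differentiation was started, and do not say whether replicates were separate cultures. The p-values therefore measure only the spread between these libraries, which may be technical.

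Accessibility was measured by ATAC-seq, in which a transposase inserts sequencing adapters into DNA that is not covered by nucleosomes. Each library came with the authors' own list of broad peaks. The 4 lists were merged wherever peaks shared at least 1 bp. A region was gained when both D5 lists and neither D1 list called it, and lost in the reverse case. The members of the comparison were thus 1238 gained and 16460 lost regions among 74656 merged regions. The rule was repeated with the 20000 peaks of highest −log10 p in each list, called the strongest peaks here, because the lists differed in length. This gave 2422 gained and 2466 lost regions among 27026. The 2 versions of the rule shared 108 gained and 443 lost regions.

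During myogenesis, MyoD family factors bind E-boxes, short sequences of the form CANNTG, often as CAGCTG, and open chromatin at muscle genes. The MyoD family, with MEF2 factors, then switches on genes of the sarcomere, the repeating contractile unit of muscle, and of excitation-contraction coupling, which links the electrical signal at the membrane to calcium release inside the fibre. The muscle microRNAs miR-1, miR-133 and miR-206 are switched on in the same programme. Methionine supplies S-adenosylmethionine, the methyl donor of histone methyltransferases such as SETD2, which places trimethylation on lysine 36 of histone H3. A peak list counts neither reads nor cells, and a larger share of cells open at a position cannot be told apart from wider opening within each cell.

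The promoters below are shown because a gained or lost region lay on them and because the gene's product is a defining part of muscle. Each line gives the 250 bases before the RefSeq start of the gene (build GRCm38.p6), 5′ to 3′ on the gene's strand, with CAGCTG in capitals. CAGCTG reads the same on both strands and is one form of CANNTG. The first 4 promoters overlapped regions gained with all peaks. They belong to the myosin light chains Myl2 and Mylpf, to Mb, which encodes the oxygen store myoglobin, and to Mybph, a relative of myosin-binding protein C.
Myl2 (chr5:122092939-122093188, plus strand): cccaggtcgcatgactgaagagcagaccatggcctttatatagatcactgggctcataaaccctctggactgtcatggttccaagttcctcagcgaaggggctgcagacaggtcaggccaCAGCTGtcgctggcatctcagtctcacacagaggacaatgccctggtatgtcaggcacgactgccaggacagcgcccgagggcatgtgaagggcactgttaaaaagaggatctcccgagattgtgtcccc
Mylpf (chr7:127211358-127211607, plus strand): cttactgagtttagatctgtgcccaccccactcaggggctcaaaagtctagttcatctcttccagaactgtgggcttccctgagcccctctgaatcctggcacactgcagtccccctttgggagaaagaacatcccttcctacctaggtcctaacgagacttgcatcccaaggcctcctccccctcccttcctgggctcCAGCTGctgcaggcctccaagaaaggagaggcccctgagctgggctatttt
Mb (chr15:77022788-77023037, minus strand): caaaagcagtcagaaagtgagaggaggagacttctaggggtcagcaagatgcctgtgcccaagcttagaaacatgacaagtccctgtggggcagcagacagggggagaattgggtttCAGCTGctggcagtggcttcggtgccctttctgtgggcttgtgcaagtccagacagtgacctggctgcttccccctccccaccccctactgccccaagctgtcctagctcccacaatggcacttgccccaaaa
Mybph (chr1:134193198-134193447, plus strand): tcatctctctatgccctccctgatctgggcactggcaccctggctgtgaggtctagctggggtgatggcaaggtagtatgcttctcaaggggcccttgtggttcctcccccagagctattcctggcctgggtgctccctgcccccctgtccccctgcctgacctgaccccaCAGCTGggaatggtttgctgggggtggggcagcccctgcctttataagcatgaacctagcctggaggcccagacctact
The next 4 overlapped regions gained among the strongest peaks. They belong to Acta1 (skeletal actin), Cacna1s (the voltage sensor of the calcium release complex), Tnnt2 (a troponin T) and Casq2 (calsequestrin, the calcium store protein).
Acta1 (chr8:123894776-123895025, minus strand): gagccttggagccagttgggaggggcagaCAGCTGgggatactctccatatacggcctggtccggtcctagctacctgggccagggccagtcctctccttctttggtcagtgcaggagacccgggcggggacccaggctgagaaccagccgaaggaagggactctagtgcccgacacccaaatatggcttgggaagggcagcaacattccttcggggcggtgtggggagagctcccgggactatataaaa
Cacna1s (chr1:136052561-136052810, plus strand): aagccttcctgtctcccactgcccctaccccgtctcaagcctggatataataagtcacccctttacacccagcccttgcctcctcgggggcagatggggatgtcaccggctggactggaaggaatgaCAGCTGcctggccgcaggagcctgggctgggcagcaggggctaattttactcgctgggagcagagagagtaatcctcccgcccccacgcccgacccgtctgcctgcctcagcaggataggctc
Tnnt2 (chr1:135836084-135836333, plus strand): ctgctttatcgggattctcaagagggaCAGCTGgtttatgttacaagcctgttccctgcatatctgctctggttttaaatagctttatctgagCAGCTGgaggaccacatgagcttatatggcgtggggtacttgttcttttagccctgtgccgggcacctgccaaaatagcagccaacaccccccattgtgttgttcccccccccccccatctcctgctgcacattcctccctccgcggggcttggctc
Casq2 (chr3:102086165-102086414, plus strand): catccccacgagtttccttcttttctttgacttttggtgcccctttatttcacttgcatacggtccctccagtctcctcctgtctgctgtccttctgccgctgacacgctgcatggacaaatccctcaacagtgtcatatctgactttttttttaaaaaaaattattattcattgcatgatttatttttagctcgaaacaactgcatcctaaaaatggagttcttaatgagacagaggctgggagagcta
The last one overlapped a region lost among the strongest peaks. It belongs to Musk, the receptor kinase that organises the neuromuscular synapse.
Musk (chr4:58285712-58285961, plus strand): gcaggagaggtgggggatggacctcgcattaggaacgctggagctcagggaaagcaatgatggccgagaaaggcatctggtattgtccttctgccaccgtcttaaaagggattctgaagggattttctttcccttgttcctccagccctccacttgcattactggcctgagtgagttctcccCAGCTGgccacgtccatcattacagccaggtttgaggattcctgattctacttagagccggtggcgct
The motif began 130 bases before the start in Myl2, 51 in Mylpf, 133 in Mb, 79 in Mybph, 221 in Acta1, 123 in Cacna1s, 223 and 157 in Tnnt2 and 68 in Musk, and these letters were not in the 250 bases of Casq2. The printed promoters were picked, so how many of them hold the motif is no count. Actc1, Csrp3, Mybpc2 and Tnnc2, not printed, also had a region gained with all peaks on a promoter window, and their windows did not hold these letters. The same holds for Tnnc1, Unc45b, Sgcb and Myom3 among the strongest peaks. A match is a description of the sequence and not a binding site.

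The lists held 69881 and 57676 peaks at D1 MR and 39538 and 39263 at D5 MR. The median fold enrichment per list, the authors' own value, was 4.67 and 4.91 at D1 MR and 4.06 and 3.82 at D5 MR. The background pileup, derived from the authors' values under an assumed peak-calling formula, was 3.53 and 3.17 fragments per position at D1 MR and 5.17 and 5.45 at D5 MR. It was higher at D5 MR, where the lists were shorter, and its part in the results was not tested. The 20000th peak had a −log10 p of 18.02 and 14.97 in the D1 MR lists and 9.77 and 8.95 in the D5 MR lists. The next peak left out differed from it by less than the digits shown. A −log10 p of 10 therefore sat above this limit at D5 and below it at D1. Over the 31746 regions called in all 4 lists, both D5 values were below both D1 values in 72.4% and above them in 5.55%. All 4 lists had a peak within 1 kb of an end of Setd2, with a −log10 p of 33.7 and 35.8 at D1 MR and 23.6 and 22.7 at D5 MR. Of 10 muscle identity genes, 7 had a gene-end peak in both D1 lists and 8 in both D5 lists, and Myf5 had none. Of 26 markers of other cell types, 4 had one in both D1 lists and 3 in both D5 lists. In 20 of the 26 no list had a gene-end peak, and none of the 26 had one among the strongest peaks of both lists of a day.

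Restricted cells had fewer and differently placed peaks at D5. On the log2 scale the number of peaks was 15.95 ± 0.20 at D1 MR and 15.27 ± 0.01 at D5 MR (SD, n = 2 each), a difference of −0.69. The D5 lists lay closer to genes: 21.1 ± 1.78% of peaks at D1 MR and 25.5 ± 0.487% at D5 MR were within 1 kb of an end of a protein-coding gene (SD, n = 2 each). The share on promoter windows, 250 bases before to 50 after a RefSeq start, was 12.7 ± 1.38% at D1 MR and 17.2 ± 0.150% at D5 MR (SD, n = 2 each). The share inside gene bodies was 44.1 ± 0.695% and 42.6 ± 0.0213% (SD, n = 2 each). Its difference of −1.48 points became 0.218 among the strongest peaks, and that of the gene-end share went from 4.43 to 0.59 points, where the day groups overlapped (exact permutation p = 0.67). The total covered length was 16.2 and 13.1 Mb at D1 MR and 9.02 and 8.47 Mb at D5 MR. With all peaks the day groups did not overlap in any of these values, nor in the intergenic share or the median width, and the two-sided exact permutation p was 0.33 for each, the smallest that 2 libraries against 2 allow (adjusted 0.389 over 14 tests).

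**Figure D1:**
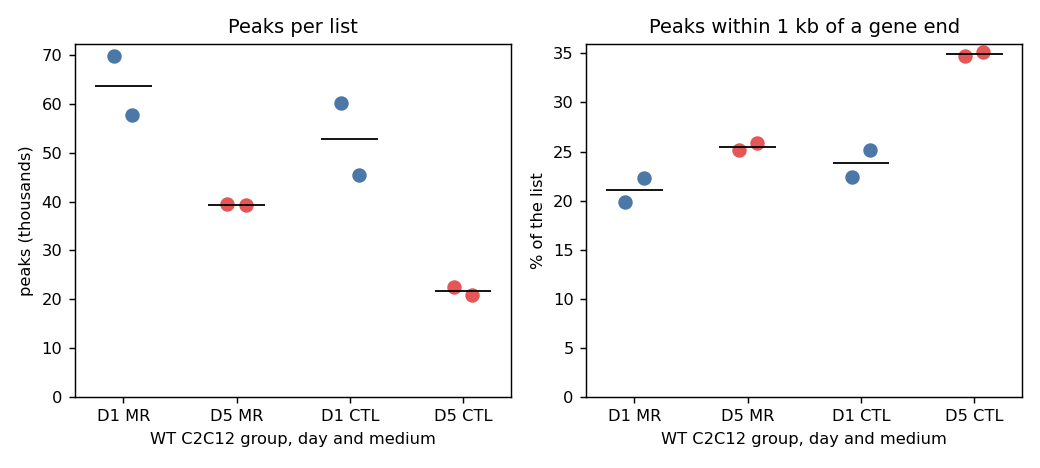
Number of peaks and gene-end share (percent of peaks within 1 kb of an end of a protein-coding gene) in each WT library of D1 and D5, under restriction (MR) and with control medium (CTL). Points are libraries and lines are group means. The D5 MR lists sit at 39538 and 39263 peaks, between the D1 MR lists and the shorter D5 CTL lists.

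The same days differed in control medium in the same direction for list length, and by more. The D5 minus D1 difference in log2 peak number was −1.27 in CTL against −0.69 in MR, and the difference of these differences was 0.59 (exact permutation p = 0.278, adjusted 0.389, where 0.056 is the smallest possible). For the gene-end share the differences were 11.2 points in CTL and 4.43 points in MR (exact permutation p = 0.33, adjusted 0.389). For the promoter-window share they were 10.4 and 4.53 points (exact permutation p = 0.278, adjusted 0.389). A smaller change under restriction was thus not shown.

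Replicates resembled each other more than they resembled the other day. The Jaccard index, which divides the bases covered by both lists by those covered by either, was 0.715 between the D1 MR lists and 0.727 between the D5 MR lists. Between days it ran from 0.470 to 0.538. With the strongest peaks only, it was 0.737 and 0.725 within days and 0.529 to 0.567 between them.

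Gained regions made up 1.66% of all merged regions and lost regions 22.0%, so the full lists gave far more losses than gains. Among the strongest peaks, with lists of equal length, the shares were 8.96% and 9.12%. Similar numbers of gains and losses follow from lists of equal length and carry no finding. Leaving out 1 library changed the counts: without D1 replicate 1 there were 2264 gained regions with all peaks, and without D5 replicate 2 there were 2297. Without D1 replicate 2 there were 29598 lost regions. In the strongest peaks the gained count was 3946 without D5 replicate 2. Most of the strongest gained regions were already listed at D1: 2201 of 2422 (90.9%) had a weaker peak in both full D1 lists. Of the 2466 lost ones, 1565 (63.5%) had a weaker peak in both full D5 lists.

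Gained and lost regions lay farther from gene starts than regions in all 4 lists, as did regions with other patterns of calls. With all peaks, 7.03% of gained and 13.1% of lost regions were within 1 kb of a gene end, against 28.6% of the regions in all 4 lists. Gene bodies held 55.1% of gained, 47.6% of lost and 40.7% of shared regions. The remaining regions, called in other patterns, were at gene ends in 11.7% of cases and in gene bodies in 48.5%. Among the strongest peaks 17.3% of gained and 14.7% of lost regions were at gene ends, against 28.2% of all and 22.0% of the remaining regions. Promoter windows were overlapped by 11.02% of gained and 7.75% of lost regions, against 20.8% of all. The median distance to a RefSeq start was 25.1 kb for gained, 34.2 kb for lost, 14.01 kb for shared and 25.8 kb for the remaining regions. Gained regions had a median width of 235 bp and lost ones of 190.5 bp, against 382 bp for shared and 181 bp for the remaining ones. Width and position were not used by the rule. A region merged from more lists can be wider, and the part of this in the widths was not tested.

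The groups in control medium shared no library with the rule, so they gave a reading of the same positions from other libraries. Their background pileup also differed by day, with 3.17 and 3.22 at D1 CTL and 5.29 and 5.88 at D5 CTL. Its part in this reading was not tested. Among the strongest peaks, the gained regions were in the 20000 strongest of the D1 CTL lists in 22.5% and 25.1% of cases and of the D5 CTL lists in 57.6% and 62.1%. The lost regions were there in 59.2% and 56.9% at D1 CTL and in 20.7% and 19.3% at D5 CTL. Over all 27026 regions these shares were 63.0% and 65.2% at D1 CTL and 61.5% and 62.5% at D5 CTL. The groups did not overlap for either set, with differences of 36.1 and −38.0 points (two-sided exact permutation p = 0.33 for each, the smallest possible, n = 2 each). At D0 the shares were 17.7% and 20.4% for gained and 59.8% and 59.4% for lost regions, on the D1 side of the D5 CTL values in both sets. With all peaks the lost regions differed in the same direction, by −49.4 points, from 62.2% and 40.9% at D1 CTL to 2.59% and 1.56% at D5 CTL. The gained regions with all peaks did not: 29.5% and 11.6% at D1 CTL and 20.03% and 17.9% at D5 CTL overlapped (exact permutation p = 1). The D5 CTL lists were short, at 89.0% and 95.9% of their length in the 20000 strongest.

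**Figure D2:**
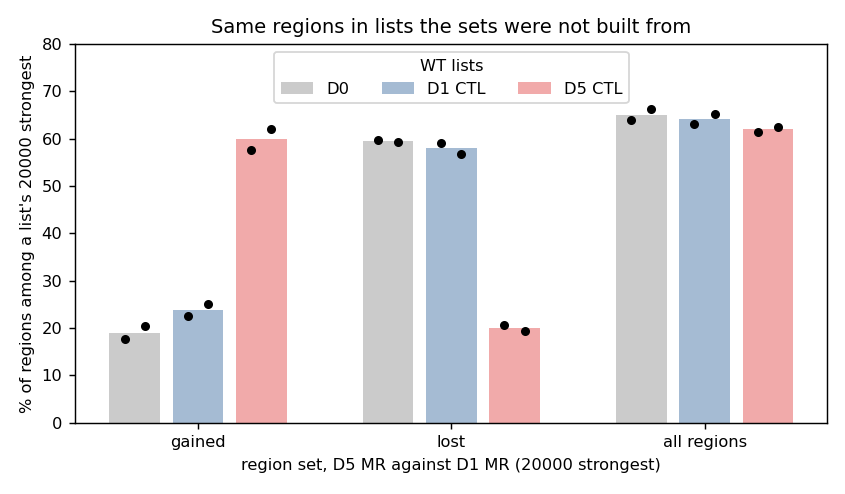
Percent of the gained, lost and all merged regions (20000 strongest, D5 MR against D1 MR) that are also among the 20000 strongest peaks of WT lists the sets were not built from. Bars are means and points the 2 lists of each group. Gained regions reach 57.6% and 62.1% at D5 CTL against 22.5% and 25.1% at D1 CTL, and lost regions show the reverse.

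The same comparison made in control medium chose partly the same positions. Over the strongest peaks of the 8 WT lists of both days and media, 703 regions were gained in both media. They were 29.0% of the gains under restriction and 23.4% of those in control medium. For losses the overlap was 756 regions, 30.7% and 23.3%. Of all 33307 regions, 9.04% were gained and 9.72% lost in control medium, and 7.27% and 7.40% under restriction. Regions that went opposite ways numbered 60 and 41. With all peaks, 68 of the 1238 gains under restriction (5.49%) were gained in control medium and 60 (4.85%) were lost there. Of all 81140 regions, 0.302% were gained and 24.4% lost in control medium. The overlap of losses was 5853 regions, 35.6% of those under restriction. In the knockout under restriction, line 2 had 35.7% of the gained regions among its 20000 strongest peaks at D5, against 37.6% and 27.5% in lines 1 and 2 at D1. For lost regions the values were 24.4% at D5 and 32.0% and 43.3% at D1. Over all 27026 regions they were higher, at 55.3% at D5 and 60.5% and 59.9% at D1. Line 1 had only 1881 peaks at D5, so the knockout comparison rests on 1 library at D5 and has no replicate check.

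Sarcomere genes gained open regions at their ends and lost none among the strongest peaks. Of 63 sarcomere and cytoskeleton genes, 13 had a gained region within 1 kb of a gene end, against 2.18% of 21627 protein-coding genes. No sarcomere gene had a lost one, against 1.88% of all genes. Inside the gene or within 1 kb of it, 25 of 63 had a gained region, against 6.33% of all genes. With all peaks 9 had a gained gene-end region (0.449% of all genes) and 5 a lost one (10.1% of all genes). In or within 1 kb of the gene, 25 had a gained region (3.18% of all genes) and 20 a lost one (26.7% of all genes). The lists of genes were chosen with earlier results of these data known, so these counts are a description.

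The thin filament genes are described first. Troponin and tropomyosin make the thin filament respond to calcium. Tnnt3, a fast troponin T, had a −log10 p of 9.50 and 9.52 at D1 MR and 19.7 and 21.01 at D5 MR. Both D5 values were far above both D1 values, although the D5 lists as a whole had lower values. Tnni2, a fast troponin I, had 10.2 and 6.91 at D1 MR and 19.7 and 11.8 at D5 MR. Tnnt2 had 11.7 and 10.2 at D1 MR and 19.6 and 13.03 at D5 MR (chr1:135836021-135836463). Tnnc1, the slow and cardiac troponin C, had 3 separate gained regions of 241, 455 and 223 bp. The 455 bp region (chr14:31209155-31209609) had 7.56 and 6.75 at D1 MR and 22.9 and 20.6 at D5 MR. The 223 bp region had 16.5 and 12.9 at D1 MR and 22.3 and 17.9 at D5 MR. The 241 bp region was not listed in D1 replicate 1, had 5.03 in replicate 2, and had 14.04 and 12.2 at D5 MR. Tpm2, a tropomyosin, had smaller differences, with 8.63 and 9.26 at D1 MR and 11.1 and 10.6 at D5 MR.

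Actin and 2 of its partners behaved alike. The region on the Acta1 promoter printed above (chr8:123894665-123895067) had a −log10 p of 7.21 and 7.96 at D1 MR and 25.7 and 17.9 at D5 MR. It was absent from both D0 lists and present in both D1 CTL and both D5 CTL lists. Lmod3, which nucleates actin filaments, had 9.27 and 7.90 at D1 MR and 14.9 and 13.3 at D5 MR. Xirp1, an actin-binding protein of muscle attachment sites, had 10.6 and 9.75 at D1 MR and 22.0 and 15.1 at D5 MR. Neither gene's day groups overlapped. Actn3, the fast-fibre actinin, was gained by order only: its values were 14.3 and 12.4 at D1 MR and 10.3 and 9.22 at D5 MR.

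Thick filament genes and 1 membrane gene made up the rest of the 13. Myl2, a regulatory myosin light chain, had no peak in either D1 MR list and 17.1 and 11.2 at D5 MR (chr5:122092832-122093162). Myom3, a protein of the M-band that ties thick filaments together, had 15.1 and 11.5 at D1 MR and 26.5 and 25.9 at D5 MR, the highest of these gene-end values. Unc45b, the myosin chaperone, had 6.90 and 5.14 at D1 MR and 15.5 and 15.3 at D5 MR. Sgcb, a sarcoglycan of the membrane complex, had 12.1 and 9.68 at D1 MR and 13.4 and 12.4 at D5 MR, close to overlap.

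Regions inside gene bodies included larger differences. Myl4 had 9.39 and 7.19 at D1 MR and 28.0 and 22.8 at D5 MR. A region of Mylpf ahead of the printed promoter had 14.7 and 11.9 at D1 MR and 23.8 and 21.4 at D5 MR. Des, the muscle intermediate filament, had 17.4 and 14.9 at D1 MR and 16.3 and 10.7 at D5 MR, values that overlapped.

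Genes of excitation-contraction coupling and the synapse gained regions too. Of 32 genes, 6 had a gained gene-end region and 1, Musk, a lost one, against 2.18% and 1.88% of all genes. With all peaks 1 had a gained and 0 a lost one, against 0.449% and 10.1%. Cacna1s had 4.93 and 5.68 at D1 MR and 16.2 and 11.2 at D5 MR (chr1:136052385-136052856). Casq2 had 7.13 and 6.13 at D1 MR and 15.2 and 21.1 at D5 MR (chr3:102086256-102086529). Scn4a, the sodium channel of the muscle action potential, had no peak at D1 MR and 14.7 and 13.3 at D5 MR (chr11:106364835-106365089). At D1 MR these 3 regions were below the 20000 limit or not listed. Hrc, a calcium-binding protein of the reticulum, had 10.4 and 7.11 at D1 MR and 15.7 and 11.6 at D5 MR. Jph2, which holds the reticulum to the surface membrane, had 11.6 and 11.7 at D1 MR and 16.2 and 13.7 at D5 MR. Jsrp1, a partner of the calcium channel, had 5.65 and 7.01 at D1 MR and 10.5 and 11.2 at D5 MR. Each gained gene-end region of this list had both D5 values above both D1 values. The lost Musk region (chr4:58285842-58285987) had 23.6 and 15.9 at D1 MR and 5.79 and 7.08 at D5 MR, and was in both D0 and both D1 CTL lists but in neither D5 CTL list.

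**Figure D3:**
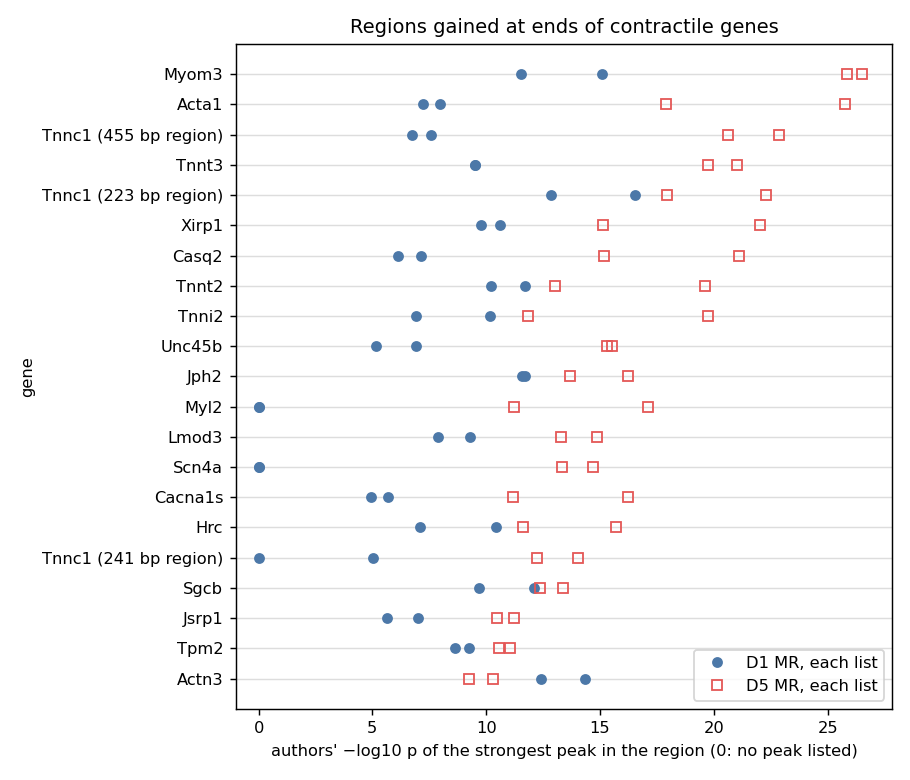
The authors' −log10 p in each D1 MR (filled) and D5 MR (open) list for the 21 gained regions at ends of sarcomere and excitation-contraction genes (20000 strongest), with 0 where no peak is listed. Both D5 values lie above both D1 values in 20 regions, and Actn3 shows the reverse.

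Over these 19 genes, both D5 values exceeded both D1 values in 20 of 21 gained regions. The same was true of 7.29% of all 27026 strongest regions and of 1176 of the 2422 gained ones (48.6%). The rule chose gained regions by these same values, so this count describes the regions and supports nothing. The count of 19 genes was 20 to 26 when any 1 of the 4 libraries was left out. The 19 genes were named in full after their values were seen. In lists the rule did not use, 18 of the 21 regions had a peak in both D1 CTL lists and 20 in both D5 CTL lists. Of all 2422 gained regions, the D1 CTL lists had a peak in 92.7% and 85.4% and the D5 CTL lists in 65.9% and 64.7%. Among the 20000 strongest peaks, however, 3 were in both D1 CTL lists and 16 in both D5 CTL lists. At D0 4 of the 21 regions had a peak in both lists and 14 in neither, while the D0 lists had a peak in 64.3% and 72.7% of all gained regions. In the knockout under restriction 17 of 21 had no peak in either line at D1, and 17 had none at D5, where line 1 had few peaks. Lines 1 and 2 had a peak in 73.1% and 52.6% of all gained regions at D1 and in 2.31% and 38.9% at D5.

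**Figure D4:**
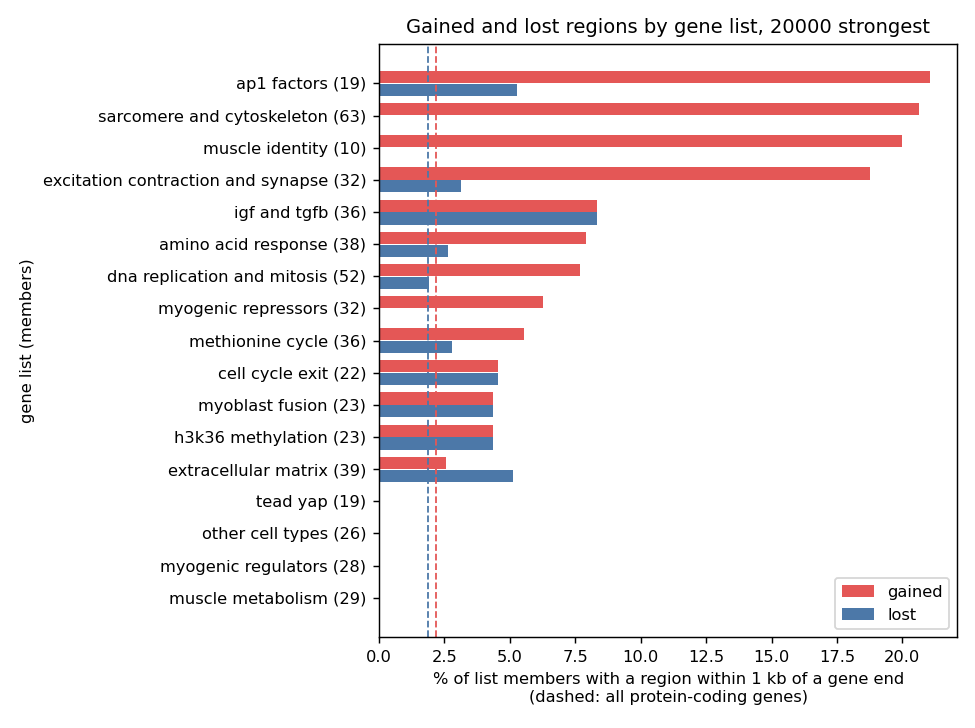
Percent of the members of each gene list with a gained or lost region within 1 kb of a gene end (20000 strongest, D5 MR against D1 MR), with the number of members in parentheses. Dashed lines give all protein-coding genes, at 2.18% for gained and 1.88% for lost. Sarcomere and cytoskeleton genes have gained regions only, in 13 of 63.

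With all peaks, 22 gained regions lay on promoter windows, 24 windows of 22 genes. They were looked up after the data were seen, and many are contractile genes. Of the 22 genes, 8 are in the sarcomere list: Actc1, Csrp3, Mybpc2, Mybph, Myl2, Mylpf, Tnnc2 and Trim63. Mb, Cox8b (a muscle subunit of cytochrome oxidase) and Art1 are in the metabolism list, and Rbm24, a muscle splicing regulator, is in the list of myogenic regulators. The other 10 are in no list and include Cav3, the muscle caveolin. By construction none had a peak at D1 MR. At D5 MR the −log10 p of these regions ran from 3.78 to 18.3, the highest being Cav3 with 18.3 and 16.7. Mybph had 9.50 and 7.41, and Mylpf had 8.81 and 7.08. Mb had 8.37 and 4.84, so most of these promoters were weak peaks, under or near the 20000 limit. At D0 21 of the 22 genes had no peak in either list, near the 91.8% of all 1238 gained regions that were in neither. At D5 CTL 8 had a peak in both lists and 10 in neither, against 13.4% and 75.4% of all gained regions. In the knockout under restriction 21 had none at D1 and 22 none at D5. The knockout lists of lines 1 and 2 held 22.4% and 5.33% of all gained regions at D1 and 0.404% and 6.30% at D5. CAGCTG was found in 12 of the 24 windows (50%), against 15.7% of 21044 windows, 17.3% of windows with a lost region and 18.8% of windows with a region gained among the strongest peaks. CANNTG was found in 91.7% of the 24 windows and in 69.0% of all windows.

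Regions near a chosen set of 8 muscle microRNA genes were gained and none was lost. Of 1228 microRNA genes, 1.30% had a gained and 16.9% a lost region within 5 kb with all peaks. Of 8 muscle microRNA genes, looked up after the data were seen, 4 had a gained and 0 a lost region. They were Mir1a-1 and Mir133a-2 on chromosome 2 and, in another cluster, Mir1a-2 and Mir133a-1. The genes of a cluster shared gained regions, so the 4 genes are not 4 separate counts. Outside the 8 genes, Mir1b had a gained and Mir133c a lost region within 5 kb with all peaks. With the strongest peaks only, Mir206 joined the 4 genes, where 3.50% of microRNA genes had a gained and 2.20% a lost region. The mature sequences that RefSeq gave for these genes (build GRCm38.p6) are shown with the seed, bases 2 to 8, in capitals.
miR-1a-1-5p: aCAUACUUcuuuauaugcccaua
miR-206-5p: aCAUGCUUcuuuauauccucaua
miR-206-3p: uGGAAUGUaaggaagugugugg
The seeds of the 3 strands differ from each other, and miR-1a-3p and miR-133a are named only.

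No D1 MR list held the following regions, apart from that near Mir206. A region 3.35 kb before Mir1a-1 (chr2:180385217-180385702) had a −log10 p of 18.996 and 15.99 at D5 MR. A region between Mir1a-1 and Mir133a-2 (chr2:180393293-180393703) had 15.5 and 17.1. A region 1.29 kb past Mir133a-2 (chr2:180399775-180400403) had 6.52 and 5.25. The strongest region gained under both versions of the rule (chr2:180376760-180377044) was 12.004 kb from Mir1a-1, with 52.0 and 36.3 at D5 MR. It was named for Gata5, the nearest protein-coding gene, 41.3 kb away. In the cluster of Mir1a-2 and Mir133a-1, on another chromosome, a region 0.984 kb from Mir1a-2 had 10.9 and 9.07, and another 2.15 kb from it had 7.26 and 6.17. None of these regions was in a D0 list, and each was in both D5 CTL lists. Over all 1238 gained regions 91.8% were in neither D0 list and 13.4% in both D5 CTL lists. The D1 CTL lists held some of these microRNA regions as weaker peaks, and the knockout lists under restriction held none of them. The Mir206 region was gained by order only, with 14.6 and 13.5 at D1 MR and 9.79 and 9.61 at D5 MR.

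The myogenic regulators showed gains and losses side by side. Of 28 such genes none had a gained or lost gene-end region among the strongest peaks, while 6 had a gained and 7 a lost region inside or beside the gene, against 6.33% and 6.19% of all genes. With all peaks 1 had a gained and 3 a lost gene-end region, against 0.449% and 10.1% of all genes. The lost ones were at Myod1, Myog and Six5. In or near the gene 3 had a gained and 15 a lost region, against 3.18% and 26.7%. Rbm24 had a region inside the gene with 13.5 and 10.1 at D1 MR and 38.2 and 31.4 at D5 MR, among the largest differences of any listed gene. The lost ones included Pax7, the satellite cell factor, with 23.2 and 18.7 at D1 MR and 6.08 and 4.19 at D5 MR. Myocd, a coactivator of smooth muscle and cardiac genes, had 29.2 and 25.3 at D1 MR and 7.91 and 4.38 at D5 MR. Non-overlap between days follows from the rule here: all 2466 regions lost among the strongest peaks had both D5 values below both D1 values. At gene ends Myod1 had 20.97 and 15.3 at D1 MR and 12.2 and 12.3 at D5 MR, and Myog had 8.12 and 8.45 at D1 MR and 8.63 and 7.42 at D5 MR, which overlapped. With all peaks 4 of the 10 muscle identity genes had a lost gene-end region, against 10.1% of all genes, and 1, Myh3, a gained one. The 4 were Myod1, Myog, Des and Cdh15, and each also had a gene-end peak in both lists of each day. Myh3, the embryonic myosin, had no gene-end peak at D1 MR and 5.67 and 4.05 at D5 MR. Ckm, muscle creatine kinase, was not listed in D1 replicate 1 and D5 replicate 2, and had 10.7 in D1 replicate 2 and 5.58 in D5 replicate 1. The other muscle identity gene with a gained gene-end region was Cdh15, the cadherin of myoblasts, with 17.1 and 14.1 at D1 MR and 11.1 and 9.35 at D5 MR, a gain by order only. The TEAD and YAP list, whose factors drive growth genes downstream of the Hippo pathway, had no gained or lost gene-end region among 19 genes with the strongest peaks, and with all peaks 5 genes had a lost one. Inside Tead4, a TEAD factor of differentiating muscle, a gained region had 11.5 and 9.07 at D1 MR and 34.6 and 31.4 at D5 MR.

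Fusion genes had 1 gained and 1 lost gene end among the strongest peaks, and only lost ones with all peaks. Of 23 genes, Cdh15 had a gained and Adgrb1 a lost gene-end region, against 2.18% and 1.88% of all genes. The gain at Cdh15 was by order only. Adgrb1, a receptor that acts in myoblast fusion, had 21.4 and 15.1 at D1 MR, no peak in D5 replicate 1 and 7.86 in D5 replicate 2. Lost regions inside genes included 1 in Adam12, a membrane protease, with 25.2 and 16.99 at D1 MR and no peak at D5 MR. Ncam1, the neural cell adhesion molecule, had 31.1 and 16.9 at D1 MR and 7.17 and 6.62 at D5 MR. With all peaks 7 of the 23 had a lost and 0 a gained gene-end region, against 10.1% and 0.449% of all genes.

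Muscle metabolism genes had gained and lost regions inside the genes and none at their ends among the strongest peaks. Of 29 genes 4 had a gained and 3 a lost region in or near the gene, against 6.33% and 6.19% of all genes. With all peaks 2 had a gained and 4 a lost gene-end region, against 0.449% and 10.1% of all genes. Pfkm, muscle phosphofructokinase, had 5.54 in D1 replicate 1, no peak in replicate 2, and 23.5 and 21.4 at D5 MR. Eno3, muscle enolase, had 7.07 and 4.74 at D1 MR and 17.6 and 14.3 at D5 MR. Mb had 15.6 and 12.99 at D1 MR and 29.7 and 20.02 at D5 MR in a region inside the gene. The lost ones included Ppargc1a, a coactivator of mitochondrial genes, with 24.8 and 20.3 at D1 MR, no peak in D5 replicate 1 and 7.61 in D5 replicate 2.

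Replication and cell cycle genes were mostly called at both days. Of 52 replication and mitosis genes, 29 had a gene-end region in all 4 strongest lists, 4 had a gained one and 1 a lost one. The first was true of 5583 of all 21627 genes. Over all genes 2.18% had a gained and 1.88% a lost one. With all peaks 0 of the 52 had a gained and 5 a lost one, against 0.449% and 10.1% of all genes. Ccne1, cyclin E1, had 12.6 and 14.3 at D1 MR and 16.6 and 14.8 at D5 MR. Cdk2, the kinase of cyclin E, had 16.7 and 12.3 at D1 MR and 16.5 and 16.3 at D5 MR, which overlapped. Orc6, an origin recognition subunit, was gained by order only, with 16.6 and 14.8 at D1 MR and 10.97 and 10.6 at D5 MR. Mcm7, a subunit of the replicative helicase, had a gained region with 14.5 and 11.7 at D1 MR and 20.7 and 9.83 at D5 MR, and a lost one beside it with 22.3 and 20.6 at D1 MR and 7.91 and 8.68 at D5 MR. Of 22 genes of cell cycle exit, Ccnd3 (cyclin D3) had a gained gene-end region with 10.1 and 10.3 at D1 MR and 10.8 and 13.4 at D5 MR. Cdkn2c, an inhibitor of CDK4 and CDK6, had a lost one with 20.1 and 21.7 at D1 MR, no peak in D5 replicate 1 and 7.61 in D5 replicate 2. With all peaks 0 of the 22 had a gained and 3 a lost gene-end region.

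Among the strongest peaks the AP-1 list had the highest share of members with a gained gene end, by order and not by value. AP-1 factors are immediate early regulators of growth and enhancer opening. Of 19 genes 4 had a gained region: Mafk with 13.4 and 12.96 at D1 MR and 11.03 and 9.20 at D5 MR, Jund with 13.3 and 13.6 and then 14.7 and 11.8, Junb with 17.7 and 14.2 and then 15.2 and 13.4, and Maff with 14.7 and 10.8 and then 11.2 and 9.87. None of the 4 had both D5 values above both D1 values. Over all genes 2.18% had a gained and 1.88% a lost gene-end region. With all peaks 0 of the 19 had a gained and 5 a lost one, against 0.449% and 10.1% of all genes. The 5 were Fosl1, Jun, Junb, Jund and Atf7, so Junb and Jund were in both sets. Fosl1, a FOS family member, was lost, with 18.2 and 17.7 at D1 MR and no peak at D5 MR. It was in both D0 lists and both D1 CTL lists and in neither D5 CTL list.

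Repressors of myogenesis had 2 gained gene ends of 32 among the strongest peaks, Notch1 and Id1, against 2.18% of all genes. With all peaks 0 had a gained and 5 a lost one, against 0.449% and 10.1%. Notch1, a receptor that keeps progenitors undifferentiated, had 16.1 and 14.5 at D1 MR and 20.3 and 17.9 at D5 MR. Id1, which blocks MyoD partners, had 14.2 and 13.8 at D1 MR and 13.1 and 9.05 at D5 MR. Inside Hdac4, a deacetylase that holds back MEF2, a gained region had 11.5 and 5.09 at D1 MR and 24.6 and 21.8 at D5 MR, and another region of the gene was lost.

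Genes of the amino acid response and the methionine cycle held gains and losses. Of 38 genes of the response to amino acid shortage, 3 had a gained gene-end region and 1 a lost one, against 2.18% and 1.88% of all genes. With all peaks 0 had a gained and 7 a lost one, against 0.449% and 10.1%. Gpt2, an alanine transaminase, had 6.02 in D1 replicate 1, no peak in replicate 2, and 12.1 and 10.3 at D5 MR. Cars, the cysteine tRNA ligase, had 9.75 and 10.1 at D1 MR and 12.7 and 11.98 at D5 MR. Fgf21, a stress hormone, was gained by order only, with 17.2 and 12.9 at D1 MR and 13.9 and 12.7 at D5 MR. Sars, the serine tRNA ligase, had a lost region with 22.6 and 18.4 at D1 MR, no peak in D5 replicate 1 and 6.41 in D5 replicate 2. Of 36 methionine cycle genes, 2 had a gained and 1 a lost gene-end region, and with all peaks 0 had a gained and 4 a lost one. Mtap, which salvages methionine, had 12.2 and 12.7 at D1 MR and 13.2 and 10.2 at D5 MR. Gamt, which uses methyl groups to make creatine, had 13.3 and 12.02 at D1 MR and 13.8 and 12.1 at D5 MR. Both of these gained regions overlapped in value between days. Mtrr, which keeps methionine synthase active, had a lost region with 20.4 and 20.97 at D1 MR and 7.51 and 7.10 at D5 MR. Of 23 genes of histone H3 lysine 36 methylation, Psip1, a reader of the mark, had a gained gene-end region with 16.1 and 12.1 at D1 MR and 11.7 and 14.8 at D5 MR. Phf1, another reader, had a lost one with 21.3 and 17.2 at D1 MR and 4.93 and 6.82 at D5 MR. With all peaks 0 of the 23 had a gained and 2 a lost gene-end region. Inside Nsd2, which places dimethylation at that residue, a gained region was not listed at D1 MR and had 16.3 and 13.03 at D5 MR.

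Matrix and growth factor genes held both gains and losses among the strongest peaks, and with all peaks only lost gene ends. Of 39 matrix genes, 1 had a gained and 2 a lost gene-end region, and 5 had a gained and 5 a lost region in or near the gene. Over all genes these shares were 2.18%, 1.88%, 6.33% and 6.19%. With all peaks 0 of the 39 had a gained and 8 a lost gene-end region, against 0.449% and 10.1% of all genes. In or near the gene 3 had a gained and 27 a lost region, against 3.18% and 26.7%. Col3a1, a fibrillar collagen, had 32.4 and 15.6 at D1 MR, 5.18 in D5 replicate 1 and no peak in D5 replicate 2. Tnc, tenascin C, had 24.03 and 18.5 at D1 MR and 9.73 and 6.59 at D5 MR. Inside Col4a2, a basement membrane collagen, a lost region had 38.8 and 34.9 at D1 MR and 6.64 and 6.90 at D5 MR. Inside Itga5, a gained region was not listed at D1 MR and had 32.3 and 31.2 at D5 MR. The gained gene-end region was at Lama5, a laminin chain, with 10.2 and 10.6 at D1 MR and 11.8 and 10.4 at D5 MR. Of 36 genes of IGF and TGF-beta signalling, 3 had a gained and 3 a lost gene-end region. With all peaks 0 had a gained and 9 a lost one, against 0.449% and 10.1% of all genes. Igfbp2, an IGF-binding protein, had 21.2 and 18.2 at D1 MR and no peak at D5 MR (chr1:72824469-72824869). This Igfbp2 region was in both D0 and both D1 CTL lists and in neither D5 CTL list. Acvr2b, a myostatin receptor, had 19.6 and 22.2 at D1 MR, 6.64 in D5 replicate 1 and no peak in D5 replicate 2. Fst, the myostatin antagonist follistatin, had 18.2 and 16.2 at D1 MR and 7.69 and 8.24 at D5 MR. The Acvr2b and Fst regions were in both D5 CTL lists. The gained ones were at Acvr1b (13.9 and 8.01 at D1 MR, 10.1 and 10.5 at D5 MR), Tgfb3 (15.1 and 13.7, then 12.3 and 10.5) and Smad6 (16.04 and 9.74, then 11.6 and 10.3). None of these 3 had both D5 values above both D1 values. Of the 26 markers of other cell types none had a gained region, and 3 had a lost one inside the gene among the strongest peaks. In each list, and over all protein-coding genes, the median number of gained regions per gene was 0 among the strongest peaks.

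The 10 strongest gains under both versions of the rule lay outside promoter windows. Itga5, the fibronectin receptor subunit and a member of the matrix list, held a region (chr15:103355532-103355739) with no peak at D1 MR and 32.3 and 31.2 at D5 MR, and no D0, CTL or knockout MR list held it. A region 111 kb from Sec61b had no peak at D1 MR and 30.6 and 28.7 at D5 MR. A region 2.78 kb from Trio had 30.04 and 25.2 at D5 MR. Regions beside Adamtsl4 (21.6 and 22.9 at D5 MR) and Chit1 (23.6 and 19.5 at D5 MR), beside Cryaa, and inside Ptprn2, Pkdcc and Polr1b completed the 10 highest. None of the 10 was in a D0 list, and 9 of the 10, all but that of Itga5, were in at least 1 D5 CTL list. Over all 1238 gained regions 91.8% were in neither D0 list and 75.4% in neither D5 CTL list.

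The strongest losses were mostly regions that the D0 lists held too. The highest, inside Slamf9 (chr1:172468650-172468726), had 58.8 and 61.2 at D1 MR and no peak at D5 MR. Regions inside Slc2a13 (40.8 and 40.4 at D1 MR), Zc3h13 (44.1 and 36.1) and Ldlrad3 (40.1 and 36.8) followed, with others near Cnih1, Lrrc17, Adgrd1, Ido2 and Syde2. These 9 were in both D0 and both D1 CTL lists and in neither D5 CTL list. Of the 10, only the region inside Scp2 was in no D0 and no D1 CTL list, with 38.8 and 31.0 at D1 MR. Over all 16460 lost regions 96.7% were in neither D5 CTL list, so absence there does not set these regions apart. Both D0 lists held 34.3% of all lost regions, and both D0 and both D1 CTL lists held 23.1%. The part of peak strength in the higher share among these 10 was not tested.

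Regions called at both days shifted in order. The 31746 regions in all 4 lists were ordered within each list by −log10 p, and a position was the percent of these regions below. A region was higher when both D5 positions exceeded both D1 positions. This held for 31.8% of the shared regions, 10111 in number, and the reverse for 31.5%, or 10012, and ordering the same regions in each list brings such a balance. A shift of at least 20 points between every D1 and every D5 position was seen in 2143 regions upwards and 1986 downwards. A region beside Chit1 went from positions of 1.72% and 1.83% at D1 MR to 92.3% and 86.7% at D5 MR. It lay on the same stretch as the gained region named above. Ephb2 (5.10% and 1.42%, then 86.9% and 85.2%), Sap30bp (4.71% and 3.41%, then 88.5% and 83.6%), Tekt5 and Sox11 had the next largest shifts up. A region inside Cux1 went from 82.6% and 76.9% to 0.962% and 2.35%, the largest shift down. Regions named for Ifne, Arhgap44, Sowahb and Usp43 followed.

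The control medium showed the same shifts more often than the opposite ones. Of 16631 shared regions also in all 4 CTL lists of D1 and D5, 32.6% were higher and 31.5% lower at D5 CTL. Of the 6271 that were higher under restriction, 47.3% were higher and 17.1% lower in control medium. Of the 4612 that were lower under restriction, 14.7% were higher and 51.9% lower there. The media share no library in this comparison. Higher regions were in both D5 CTL lists in 63.7% of cases and lower ones in 46.3%.

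**Figure D5:**
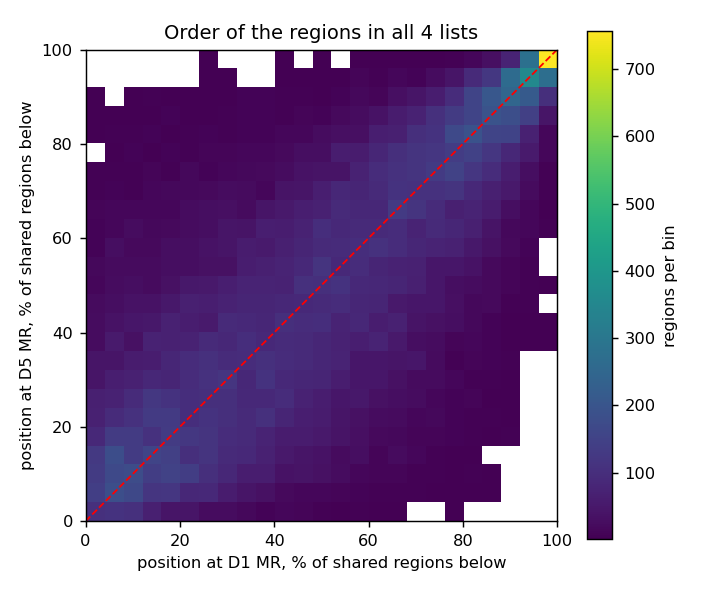
Position of the 31746 regions called in all 4 lists, as the percent of these regions below, averaged over the D1 MR lists (horizontal) and the D5 MR lists (vertical). Colour gives the number of regions per bin and the dashed line marks equal position. In 10111 regions both D5 positions exceeded both D1 positions and in 10012 the reverse held, a balance that the ordering itself brings.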

How the data were processed

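ATAC-seq libraries were tagmented with a commercial kit, amplified with 10 PCR cycles and sequenced as read pairs, per the labels' protocols. The data are 1 broad peak list per library, called per library. Build GRCm38 is named in the submitters' processing notes. The aligner, filters, duplicate handling, read shift and peak caller are not given in the sources used here, so their effect on the lists was not tested. Per peak, the deposited lists give a score (10 times the −log10 q-value without decimals), the fold over background (a ratio), and the −log10 p-value and −log10 q-value of the authors. The lowest deposited −log10 q-value was 1.00.

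Regions were merged at an overlap of 1 bp. Peaks were ranked and cut within their own list. Each list's −log10 p has its own scale, so values set side by side across lists are a description. Genes, promoter windows and microRNAs came from RefSeq tables of GRCm38.p6, with 21627 protein-coding genes. Single values were compared by exact permutation over libraries, with Benjamini-Hochberg adjustment over 14 tests. Gained and lost regions were counted without a test, since 2 libraries against 2 cannot reach 0.05. Read totals were not used here. The background pileup assumed a Poisson p-value at constant pileup. The counting of gained and lost regions was tested on simulated lists. No genome was used, so motifs were counted in promoter windows only.

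Replicate numbers 1 and 2 recur in both groups. Deviations of same-numbered libraries from their group means had a correlation of 0.0118 over 31746 regions. With 2 pairs this cannot show whether same-numbered libraries shared a culture or a batch. In the main comparison the numbers were treated as names of libraries only. Genes were named by a rule: the 10 strongest gained and lost regions under both versions, genes with most regions, up to 6 listed genes per list by strength, the 5 largest shifts in order each way, Setd2 and the muscle identity genes. Names beyond it were chosen after their values were seen. The members and lists were chosen with earlier results of these data known. Alternatives tried were q-value minimums, 20000 or 10000 peaks per list, lists of equal length, stricter overlap, merging over all lists, wider gene ends, the replicate block and leaving out each library. Python 3.11.15, pandas 2.3.3, numpy 2.4.6, scipy 1.17.1 and matplotlib 3.10.9 were used. A few listed genes are not reported here.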

Additional observations from a re-analysis of the deposited data

Results flagged for a closer look

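The median peak width differed in opposite directions between the media. Under restriction it was 155.5 ± 0.707 bp at D1 and 165.5 ± 7.78 bp at D5, with both D5 lists wider. In control medium it was 140 ± 2.83 bp at D1 and 133 ± 4.24 bp at D5 (SD, n = 2 each), with both D5 lists narrower. The D5 minus D1 change was thus 17 bp larger under restriction. The test of this difference gave an exact permutation p of 0.444 (adjusted 0.444).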

How the results depend on the processing

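The 1238 gained regions became 645 at a −log10 q of at least 5, 2422 with the 20000 and 1434 with the 10000 strongest peaks, 4773 with lists cut to the shortest (39263 peaks), and 1378 to 2297 without 1 library. The 16460 lost regions became 2466, 1433 and 4819 with the same list lengths and 18983 to 29598 without 1 library. With the strongest peaks, leaving out 1 library, an alternative added after the data were seen, gave 3013 to 3946 gained and 3142 to 3674 lost regions. It gave 20 to 26 contractile and coupling genes with a gained gene end and 1 to 3 with a lost one. The gene-body difference reversed to 0.218 points with the strongest peaks, and the share of gained regions called in control libraries reversed from −1.58 to 36.1 points. With gene ends of 2 kb, 182 protein-coding genes had a gained region in place of 97. With the strongest peaks there were 471 with a gained and 407 with a lost one in place of 2191. Lost gene ends in the sarcomere list were 5, 8 with 2 kb ends and 0 with the strongest peaks. In the excitation-contraction list gained ones were 1, 2 with 2 kb ends and 6 with the strongest peaks, and lost ones 0, 3 and 1. Of 30 counts of the other lists, 28 moved by over 1.5 times with the strongest peaks and 8 with 2 kb ends. With the replicate block, the gained and lost counts are 1238 and 16460 by construction, and the difference in log2 peak number was −0.69 (exact permutation p = 0.5). Causes were not tested. List length limits what the full lists can show. A region absent from a list was not called there, which does not show that it was closed. The part of sequencing depth in this was not tested.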

Other observations

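Some genes held several changed regions. With the strongest peaks Ablim1, an actin-binding LIM protein, had 7 gained regions of its 14 and no lost one. Il2rb, a cytokine receptor chain, had 5 of 5 gained, and Dapk2, a calmodulin-regulated kinase, 5 of 9. Zc3h3 had 5 of 11 and Zmiz1 5 of 27. Lost regions were most numerous in Fbxl13 (6 of 14), Agap1 (5 of 20), Cdh13 (5 of 25), Bcar3 (4 of 12) and Dlgap1 (4 of 15). Cdh13, an atypical cadherin, also had 3 gained regions. These are long genes: Agap1, Cdh13 and Dlgap1 span 440, 1185 and 852 kb. With all peaks Mad1l1 (5 of 31) and Vac14 (5 of 21) had the most gained regions and Dst (18 of 50) and Pakap (17 of 55) the most lost ones.

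Across chromosomes the share of gained regions ran from 5.19% on the X chromosome (18 of 347) to 10.5% on chromosome 8 with the strongest peaks. The share of lost regions ran from 7.63% on chromosome 19 to 12.3% on chromosome 18.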
